A study of Homo sapiens with 12 samples.

Results

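The genes examined here were 35 genes of protein quality control in the endoplasmic reticulum (ER), 15 that help proteins fold in the ER lumen (chaperones, their cofactors, the glucosyltransferases of the calnexin cycle and prolyl isomerases) and 20 that carry misfolded proteins to ER-associated degradation. They were chosen by name, with earlier results of these data known, and all 35 were found among the 54127 Ensembl identifiers counted. The cells were C4-2, a castration-resistant prostate cancer line derived from LNCaP. They received, by reverse transfection, 50 nM of an siRNA pool against choline kinase alpha, CHKA (6 samples, siCHKA), or 50 nM of a nontargeting pool (6 samples, siNT), and their polyadenylated RNA was sequenced. CHKA phosphorylates choline in the pathway that makes phosphatidylcholine, the main phospholipid of ER membranes. Because 1 siRNA pool was used, loss of CHKA and any other effect of that pool cannot be told apart. The study's text calls the 6 samples biological replicates in one place and speaks of triplicates in another, so p-values measure the spread between these samples, which may be partly technical.

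CHKA was measured at 1.91 to 4.67 CPM (counts scaled to the TMM-adjusted library size) in the siCHKA samples and at 36.7 to 43.3 CPM in the siNT samples. Reads counted on genes ranged from 10685184 to 24246055 per sample, so that 3 counts correspond to 0.124 to 0.281 CPM (counting error only), far under the level of every member. The siCHKA samples fell into 2 sets. Replicates 1, 3 and 5 stood apart from 2, 4 and 6 on the main axis of variation (54.4% of the variance within the group). These sets were read from the expression values and not from a label, so p-values from a single set leave out the spread between sets. The members for which these sets did not overlap are given by set further on. The share of uniquely aligned reads outside genes was 6.70% to 8.54% after siCHKA and 5.49% to 6.63% after siNT, without overlap, and its part in the results was not tested. The prostate epithelial markers fixed for the check were all expressed, KLK3 at a mean of 3248 CPM after siNT, with 7 of 10 lower and 3 higher after siCHKA and a summed level of 4654 to 4735 CPM in siCHKA replicates 1, 3 and 5 and 5688 to 5814 CPM in 2, 4 and 6, against 5673 to 7174 CPM after siNT. Of 10 markers of other cell types with an identifier, the blood cell markers PTPRC and CD3E, the stromal collagen COL3A1, the basal markers KRT5 and TP63 and the neuroendocrine marker CHGA lay at or near 0 in both groups, CD3E at 0 in every sample. Their 4 testable members (COL1A1, CD68 and SYP higher, VWF lower) summed to 30.5 to 38.9 CPM after siCHKA and 19.1 to 26.3 CPM after siNT.

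The ER lumen is where secreted and membrane proteins fold. HSPA5 (BiP), the Hsp70 chaperone of the ER, binds exposed hydrophobic stretches, calnexin and calreticulin hold glycoproteins that carry a single glucose, and prolyl isomerases turn peptide bonds at proline. Proteins that fail to fold are recognized by lectins and mannose-trimming enzymes, passed through the SEL1L and SYVN1 (HRD1) ligase complex, tagged with ubiquitin and pulled into the cytosol by the ATPase VCP for the proteasome. Secretory prostate epithelium, which releases large amounts of glycoproteins such as KLK3 (PSA), relies on this machinery. Many of these genes are known targets of the unfolded protein response, in which ATF6 with the CCAAT-binding factor NF-Y, and XBP1, act on ER stress response elements in promoters.

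The promoters of the members were searched for 3 such elements in windows of 250 bases before to 50 bases after the RefSeq start (GRCh38.p14), on both strands. The ER stress response element (ERSE) was taken as CCAAT, 9 bases of any kind and CCACG, ERSE-II as ATTGG, 1 base and CCACG, and the core of the unfolded protein response element (UPRE) as TGACGTGG. A window was found for 32 of the 35 members, and FKBP14, DERL1 and UFD1 had none. An ERSE was present in 5 of 14 folding promoters (35.7%), in 0 of 18 degradation promoters and in 22 of all 27305 promoters (0.0806%). ERSE-II was present in HYOU1, SDF2L1 and HERPUD1 and in 15 of all promoters (0.0549%), and the UPRE core in HYOU1, VCP and UBE2J1 and in 217 of all promoters (0.795%). In the promoters of other ER folding genes and other degradation genes, listed further on, ERSE and ERSE-II were present in 0 of 22 and 0 of 25. The UPRE core was present in 1 of these 22 and 0 of these 25. Many members are known targets of the response that acts on these elements, so the shares are a description and not a test. These matches describe letters in a window and not binding. Only exact matches were sought, so variant forms and elements outside the window would be missed. The ERSE stretches are shown because the genes that carry them include the most abundant chaperones. They read 5′ to 3′ along the gene, with CCAAT and CCACG, or their complements where the element lies on the other strand, in capitals.
HSPA5, chr9:125241371-125241429, minus strand: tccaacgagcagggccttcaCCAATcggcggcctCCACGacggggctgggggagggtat
HSP90B1, chr12:103930196-103930359, plus strand: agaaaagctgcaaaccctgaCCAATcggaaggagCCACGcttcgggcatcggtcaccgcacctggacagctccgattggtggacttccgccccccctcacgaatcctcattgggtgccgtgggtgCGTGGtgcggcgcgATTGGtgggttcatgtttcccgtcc
CALR, chr19:12938364-12938422, plus strand: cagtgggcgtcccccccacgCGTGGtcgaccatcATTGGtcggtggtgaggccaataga
CANX, chr5:179698758-179698816, plus strand: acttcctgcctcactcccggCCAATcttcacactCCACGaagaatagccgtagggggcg
CRELD2, chr22:49918534-49918592, plus strand: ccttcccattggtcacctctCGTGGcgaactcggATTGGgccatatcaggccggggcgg

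Distances are counted from the single RefSeq start used for each gene. The element began 66 bases before that start in HSPA5, 151 bases in CANX, 225 bases in CALR and 80 bases in CRELD2. HSP90B1 held 2 of them, one on each strand, beginning 194 and 89 bases before its RefSeq start. The GENCODE gene spans of CANX, CRELD2 and HSP90B1, given further on, begin farther upstream, so these stretches lie inside those spans. The ERSE-II stretches of the other 3 members are shown in the same way, with ATTGG and CCACG or their complements in capitals.
HYOU1, chr11:119057254-119057410, minus strand: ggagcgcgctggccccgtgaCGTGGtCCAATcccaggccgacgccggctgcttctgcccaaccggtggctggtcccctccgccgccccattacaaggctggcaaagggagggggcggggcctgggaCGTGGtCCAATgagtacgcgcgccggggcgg
SDF2L1, chr22:21642094-21642144, plus strand: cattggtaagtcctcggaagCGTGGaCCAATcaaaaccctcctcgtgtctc
HERPUD1, chr16:56932005-56932055, plus strand: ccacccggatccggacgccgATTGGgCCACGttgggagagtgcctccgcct

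HYOU1 held 2 copies of ERSE-II, at 185 and 79 bases before its start, and its UPRE core shared 5 bases with the farther copy. HERPUD1 was the only one of the 18 degradation members searched with either form of the ER stress response element in its window.

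Knockdown of CHKA went with lower transcript levels of both arms, with larger falls in the folding arm, as described by counts and medians. At an adjusted p below 0.05 (edgeR's quasi-likelihood test, Benjamini-Hochberg over all 14501 genes tested), 28 of the 35 members were lower after siCHKA (80%), 1 was higher and 6 did not pass the test. Among all genes tested 30.1% were lower and 32.1% higher, and among the 6783 genes whose mean level reached 30 CPM, as that of all 35 members did, 43.4% were lower. Of the folding members 13 of 15 were lower and SIL1 was higher, with a median log2 fold change of -0.74. Of the degradation members 15 of 20 were lower and 0 higher, with a median of -0.29, and the median over all genes was 0.03. A fall of at least 2-fold was seen in 5 folding members and 0 degradation members, against 4.51% of all genes. In 24 members every siCHKA sample lay below every siNT sample (13 folding and 11 degradation), as in 21.5% of all genes, and no member lay wholly above, as 19.1% of all genes did. In bulk RNA, less transcript per cell and fewer cells that carry it cannot be told apart.

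**Figure D1:**
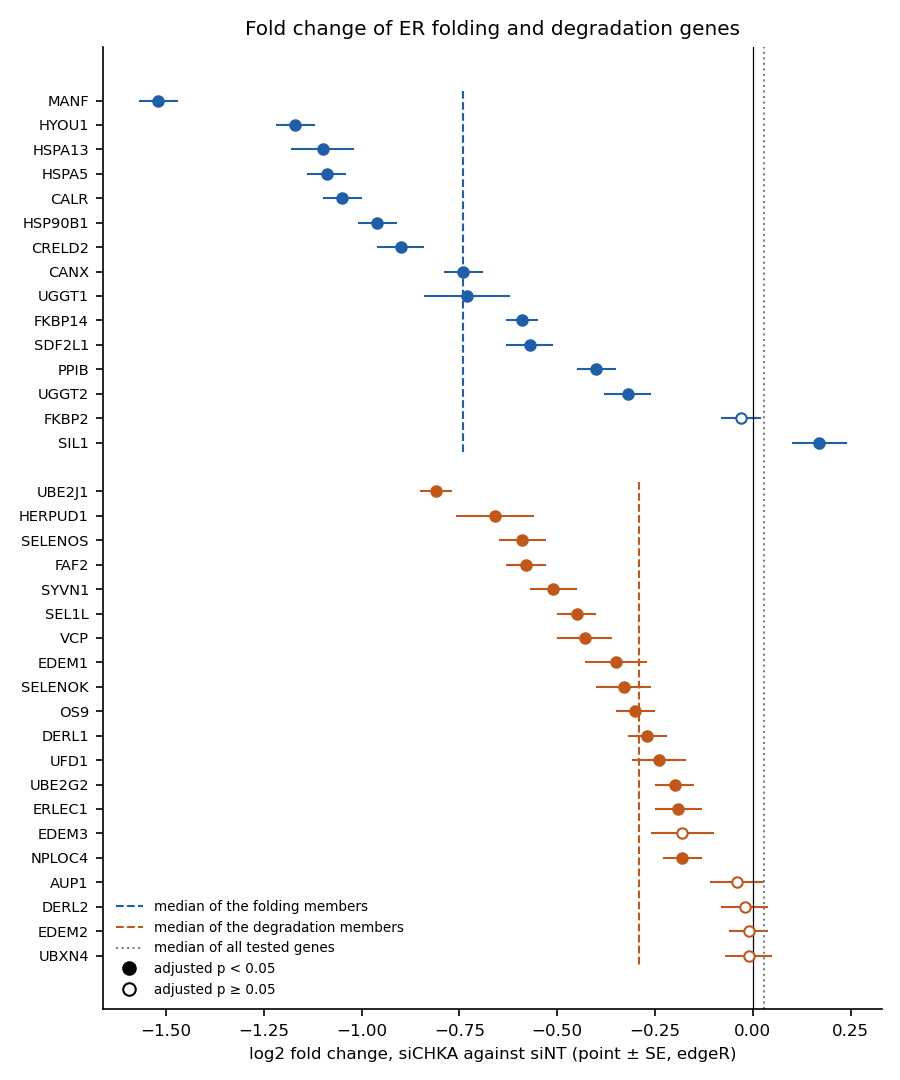
Log2 fold change (siCHKA against siNT, horizontal axis, point ± standard error derived from edgeR's F statistic) of the 15 folding members (blue) and 20 degradation members (orange), filled where the adjusted p is below 0.05. The dashed lines mark the class medians of -0.74 and -0.29 and the dotted line the median of all genes, 0.03; only SIL1 lies to the right of it.

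The size of these falls depended on the scaling. Without TMM normalization, with library totals only, 2995 genes were lower and 6666 higher in place of 4371 and 4650, and the median of all genes rose from 0.03 to 0.19. The folding median was then -0.59 with 12 members lower and 2 higher (SIL1 and FKBP2), and the degradation median -0.14 with 10 lower and 1 higher (EDEM2). Relative to the median of all genes, the folding median was -0.78 and the degradation median -0.32 under both scalings. A change of scaling shifts all genes nearly together, so this equality was fixed in advance and is no check.

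In the Hsp70 system of the lumen, HSPA5, HYOU1, HSPA13 and SDF2L1 were lower. HSPA5 (ENSG00000044574, chromosome 9, 125234853 to 125241382 on the minus strand of GRCh38) was measured at 1131, 1176 and 1198 CPM (lowest, median and highest) after siCHKA and at 2249, 2459 and 2807 CPM after siNT. All 6 siCHKA samples thus lay within a narrow band below the siNT samples. The log2 fold change was -1.09 with a standard error (SE) of 0.05 (adjusted p = 2.63e-11). HYOU1 (ENSG00000149428, chromosome 11, 119044188 to 119057227, minus strand), a large Hsp70 relative that exchanges nucleotide on HSPA5, lay at 260.5, 278 and 286 CPM after siCHKA and at 593, 623 and 654 CPM after siNT. Its samples did not overlap, and it fell by 1.17 on the log2 scale (SE 0.05, adjusted p = 1.27e-12). HSPA13, another Hsp70 family member of the ER, fell by 1.10 (SE 0.08, adjusted p = 2.12e-09). SDF2L1, which forms a complex with the cochaperone DNAJB11, fell by 0.57 (adjusted p = 3.57e-07).

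MANF (ENSG00000145050, chromosome 3, 51385291 to 51389397, plus strand), a small ER protein that binds HSPA5 and can be secreted, had the largest fall of the members. It was measured at 89.3, 94.2 and 107 CPM after siCHKA and at 267, 274 and 293 CPM after siNT, which left 34.8% of the siNT level. The groups were far apart, with a log2 fold change of -1.52 (SE 0.05, adjusted p = 2.63e-13). Its promoter window held no exact match to any of the 3 elements. CRELD2 (ENSG00000184164, chromosome 22, 49918167 to 49927540, plus strand), an ER-resident protein induced by ER stress, lay at 44.3, 50.1 and 56.6 CPM after siCHKA and at 89.4, 92.3 and 105 CPM after siNT. It fell by 0.90 without overlap (SE 0.06, adjusted p = 9.55e-10).

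SIL1 (ENSG00000120725, chromosome 5, 138946724 to 139293557, minus strand), the other nucleotide exchange factor of HSPA5, was the only member that was higher. It was measured at 46.9, 55.3 and 67.2 CPM after siCHKA and at 48.1, 50.0 and 51.3 CPM after siNT. The lowest siCHKA sample lay under the lowest siNT sample, so the groups overlapped. The log2 fold change was 0.17 (SE 0.07, adjusted p = 0.0363 in the fit over all genes; two-sided exact permutation of the log2 values, p = 0.0368, n = 6 per group). With siCHKA replicates 2, 4 and 6 only it was 0.04 (adjusted p = 0.533), and with replicates 1, 3 and 5 only 0.29 (adjusted p = 0.000755). Both p-values leave out the spread between these sets, which were found in the same data. Leaving out single samples moved the adjusted p of SIL1 between 0.00555 and 0.0965. The call was lost without siCHKA replicate 1, 3 or 5 and without siNT replicate 1, 3, 4, 5 or 6.

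**Figure D2:**
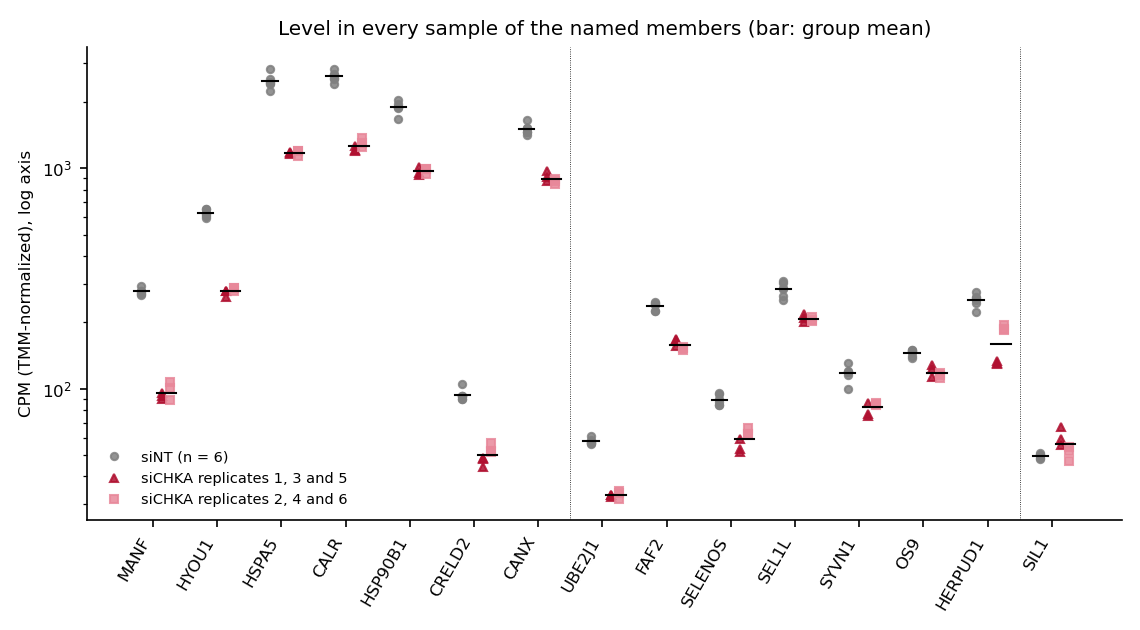
Level (CPM, log axis) in every sample of the 7 folding members, the 7 degradation members and SIL1 given by sample in the text, with siNT samples as circles, siCHKA replicates 1, 3 and 5 as triangles, siCHKA replicates 2, 4 and 6 as squares and group means as bars. The siCHKA samples lie below all siNT samples in the first 14 genes, and the sets of siCHKA samples are farthest apart in HERPUD1 (129 to 133 against 185 to 195 CPM).

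HSP90B1 (ENSG00000166598, chromosome 12, 103930107 to 103953931, plus strand), the Hsp90 chaperone of the lumen, was measured at 933, 972 and 1010.7 CPM after siCHKA and at 1669, 1899 and 2041 CPM after siNT. It fell by 0.96 (SE 0.05, adjusted p = 1e-10) with no overlap between the groups.

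The lectin chaperones fell as well. CALR (ENSG00000179218, chromosome 19, 12938578 to 12944489, plus strand), calreticulin, the soluble lectin, lay at 1199, 1253 and 1372.5 CPM after siCHKA and at 2420.2, 2599 and 2833 CPM after siNT. The highest siCHKA sample was well under the lowest siNT sample, and the log2 fold change was -1.05 (SE 0.05, adjusted p = 3.69e-11). CANX (ENSG00000127022, chromosome 5, 179678628 to 179731641, plus strand), calnexin, its membrane-bound relative, lay at 849.8, 886 and 968 CPM after siCHKA and at 1412, 1486 and 1647 CPM after siNT. The groups were again separate, with a smaller log2 fold change of -0.74 (SE 0.05, adjusted p = 1.99e-09). UGGT1, which puts glucose back on unfolded glycoproteins so that they return to these lectins, fell by 0.73 (SE 0.11, adjusted p = 1.34e-05), and its paralog UGGT2 by 0.32 (adjusted p = 0.000374).

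The prolyl isomerases differed among themselves. FKBP14 fell by 0.59 (SE 0.04, adjusted p = 3.03e-09) and PPIB, cyclophilin B, by 0.40 (SE 0.05, adjusted p = 2.6e-06). FKBP2 had a log2 fold change of -0.03 (SE 0.05, adjusted p = 0.63), with 42.4 to 43.3 CPM after siCHKA inside the range of 41.0 to 47.5 CPM after siNT. Exons of SNX22 on the opposite strand cover 26.6% of the exon bases of PPIB, and the strand setting of the counting is not given in the sources used here, so how reads in that stretch were assigned is not known. The exact permutation test gave p = 0.00216, the smallest that 6 samples against 6 allow, for each of the 13 folding members that were lower. That value follows from the lack of overlap and adds nothing to it. Among all genes, 21.5% lay wholly below and 19.1% wholly above siNT, which gives the same p.

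Among the degradation members, the ubiquitin-conjugating and ligase components were spread widely. UBE2J1 (ENSG00000198833, chromosome 6, 89326625 to 89352722, minus strand), the membrane-anchored conjugating enzyme that works with SYVN1, had the largest fall of this arm. It was measured at 31.7, 33.0 and 34.2 CPM after siCHKA and at 56.0, 56.9 and 61.3 CPM after siNT. The groups were tight and separate, with a log2 fold change of -0.81 (SE 0.04, adjusted p = 7.35e-11). The ligase SYVN1 (ENSG00000162298, chromosome 11, 65121780 to 65134532, minus strand) lay at 75.4, 84.9 and 86.1 CPM after siCHKA and at 99.7, 119 and 130.4 CPM after siNT. Its log2 fold change was -0.51 (SE 0.06, adjusted p = 1.34e-06), and the groups did not overlap. SEL1L (ENSG00000071537, chromosome 14, 81471547 to 81533853, minus strand), which holds the ligase complex together, lay at 201, 207 and 217 CPM against 253, 285 and 307 CPM and fell by 0.45 (SE 0.05, adjusted p = 1.25e-06).

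HERPUD1 (ENSG00000051108, chromosome 16, 56932142 to 56944864, plus strand), a stress-inducible organizer of the same complex, lay at 129, 159 and 195 CPM after siCHKA and at 224, 256 and 274 CPM after siNT. Every siCHKA sample was below every siNT sample, but the siCHKA samples were themselves split, and the log2 fold change was -0.66 (SE 0.10, adjusted p = 3.58e-05). DERL1, a derlin of the export channel, fell by 0.27 (adjusted p = 4.88e-05). DERL2 had a log2 fold change of -0.02 (SE 0.06, adjusted p = 0.743). UBE2G2, a second conjugating enzyme, fell by 0.20 (SE 0.05, adjusted p = 0.00114). AUP1, which recruits UBE2G2, had a log2 fold change of -0.04 (SE 0.07, adjusted p = 0.605).

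Of the enzymes and lectins that select glycoproteins for degradation, 3 of 5 were lower, against 43.4% of all genes at 30 CPM or more. OS9 (ENSG00000135506, chromosome 12, 57693841 to 57728342, plus strand), a lectin that reads trimmed mannose, was measured at 112, 116 and 128 CPM after siCHKA and at 137, 147 and 150.02 CPM after siNT. The groups did not overlap, and the log2 fold change was -0.30 (SE 0.05, adjusted p = 2.75e-05), although 15.9% of its exon bases are shared with AGAP2-AS1 on the same strand in GENCODE release 44. ERLEC1, the other lectin, fell by 0.19 (SE 0.06, adjusted p = 0.0144) with overlapping groups. Of the mannosidase-related EDEM genes, EDEM1 fell by 0.35 (SE 0.08, adjusted p = 0.00183), also with overlap. EDEM2 stood at -0.01 on the log2 scale (adjusted p = 0.831) and EDEM3 of -0.18 (SE 0.08, adjusted p = 0.065). EDEM3 passed the test in 6 alternatives, among them siCHKA replicates 2, 4 and 6 only, where it fell by 0.32 (adjusted p = 0.00439), and the fits without siCHKA replicate 1 or 5 or siNT replicate 1 or 3.

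The components that pull substrates out of the membrane were lower in most cases. FAF2 (ENSG00000113194, chromosome 5, 176447628 to 176510074, plus strand), an adaptor that brings VCP to the ER and to lipid droplets, lay at 151, 156 and 169 CPM after siCHKA and at 225, 241 and 246.2 CPM after siNT. It fell by 0.58 with separate groups (SE 0.05, adjusted p = 1.28e-08). SELENOS (ENSG00000131871, chromosome 15, 101270817 to 101277500, minus strand), a selenoprotein that links VCP to the derlins, lay at 51.4, 60.7 and 66.3 CPM after siCHKA and at 84.0, 88.7 and 95.4 CPM after siNT. It fell by 0.59 (SE 0.06, adjusted p = 3.37e-07), again without overlap, and the related SELENOK by 0.33 (adjusted p = 0.000307) with overlapping groups. VCP itself fell by 0.43 (SE 0.07, adjusted p = 4.22e-05). Its cofactors UFD1 and NPLOC4 fell by 0.24 (adjusted p = 0.00529) and by 0.18 (adjusted p = 0.00376), UFD1 with overlapping groups. UBXN4, another VCP adaptor of the ER membrane, had a log2 fold change of -0.01 (SE 0.06, adjusted p = 0.901). With library totals only, ERLEC1, UFD1, NPLOC4, UBE2G2, EDEM1 and the folding member UGGT2 no longer passed the test.

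Summed over its members, the folding arm lost a larger part of its transcripts than the degradation arm. The 15 folding members together made up 5138, 5311 and 5474 CPM (lowest, median and highest) after siCHKA and 9772, 10255 and 11183 CPM after siNT, and the mean after siCHKA was 51.3% of that after siNT. The 20 degradation members made up 2223, 2253 and 2284 CPM after siCHKA and 2771, 2884 and 2969 CPM after siNT, or 78.0%. Neither sum overlapped between the groups. The ratio of both sums, which is taken within a sample and so does not depend on the scaling, was 2.28, 2.34 and 2.42 after siCHKA and 3.496, 3.53 and 3.77 after siNT. It was nearly the same in siCHKA replicates 1, 3 and 5 (2.295 to 2.376) and 2, 4 and 6 (2.282 to 2.42). The 4 most abundant folding members, CALR, HSPA5, HSP90B1 and CANX, made up 82.4% of the folding sum after siNT, so the sum mostly follows them. The median over members, which gives each gene equal weight, differed in the same direction: against the siNT mean it was -0.85 to -0.63 in the siCHKA samples for folding and -0.32 to -0.25 for degradation.

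**Figure D3:**
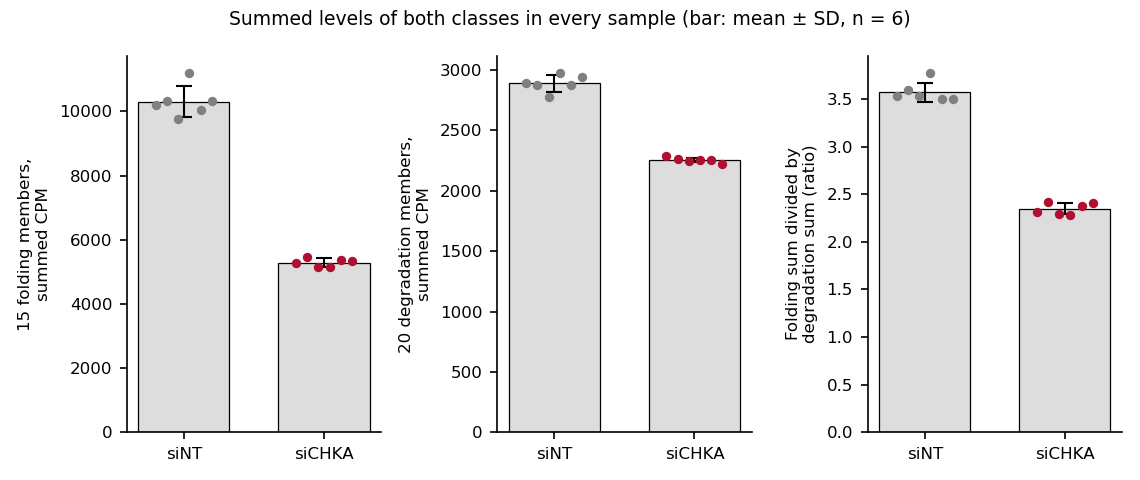
Summed level (CPM) of the 15 folding members and of the 20 degradation members, and the ratio of both sums, in each sample (points) with the group mean and SD (bars, n = 6 per group). The ratio lies at 3.496 to 3.77 in the siNT samples and at 2.28 to 2.42 in the siCHKA samples.

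Per length of transcript (RPKM, CPM per kilobase of the canonical transcript), the siNT levels of the members ranged from 6.95 for UGGT2 to 1374 for CALR. HSP90B1 followed at 680.0 RPKM, HSPA5 at 634 RPKM, CANX at 305.5 RPKM and MANF at 304 RPKM. VCP was the most abundant degradation member at 140.2 RPKM, and the class medians were 75.8 RPKM for folding and 35.9 RPKM for degradation. More abundant members tended to have larger falls. The Spearman correlation of siNT level with log2 fold change was -0.50 over the 35 members, -0.50 over the 15 folding and -0.37 over the 20 degradation members, and -0.38 over 13962 tested genes with a length. These are correlations across genes, given as a description, and both axes share the siNT values. Single members departed from this order: UBE2J1 at 13.9 RPKM fell by 0.81, VCP by 0.43, and FKBP2 at 75.8 RPKM had a log2 fold change near 0 while SDF2L1 at the same level fell by 0.57.

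**Figure D4:**
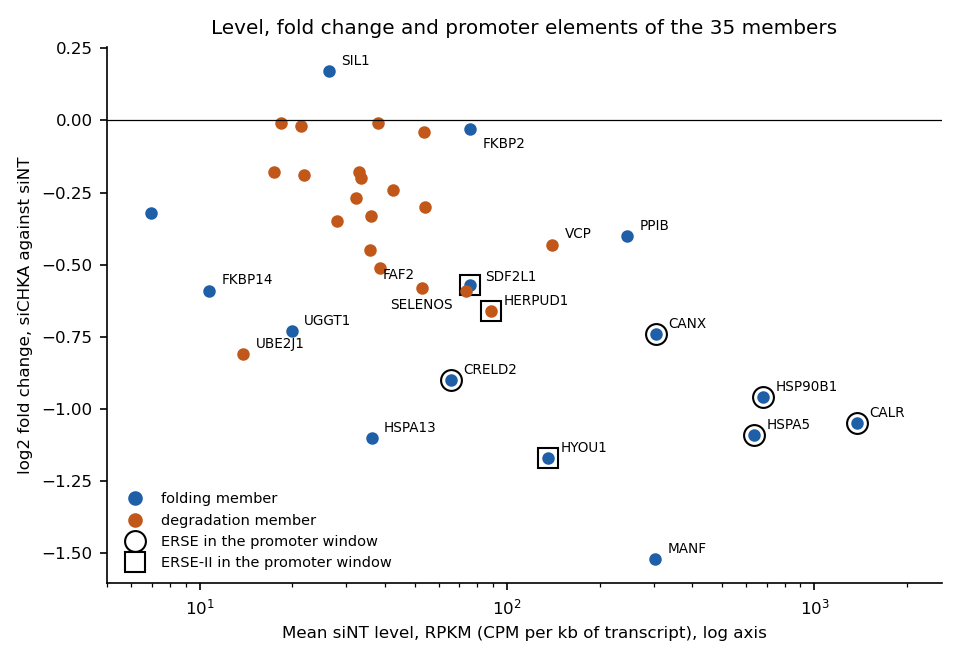
Log2 fold change (siCHKA against siNT, vertical axis) against the mean siNT level (RPKM, log axis) of the 35 members, with a ring where the promoter window holds an ERSE and a square where it holds ERSE-II. The 5 ringed genes lie between -1.09 and -0.74. MANF, with no exact match to either element in its window, lies lowest at -1.52.

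Set beside the promoter sequences above, the 5 members with an ERSE were all lower, with a median log2 fold change of -0.96 and a range of -1.09 to -0.74. The 9 folding members with a window but no ERSE had a median of -0.57 and a range of -1.52 to 0.17 (7 lower, 1 higher). This range encloses the values of the first set. Among the 9 are HYOU1 and SDF2L1, which held ERSE-II. Of all promoters with an ERSE, 14 belonged to tested genes, of which 11 were lower and 2 higher. The 9 of these that are not members had a median of -0.26, 6 lower and 2 higher. The 3 members with ERSE-II were all lower (median -0.66), and 8 tested genes with ERSE-II outside the members had a median of -0.25 (5 lower, 2 higher). The UPRE core was found in 101 tested genes, of which 40 were lower and 31 higher, with a median of -0.03. Over all genes tested, 30.1% were lower and 32.1% higher, and 43.4% were lower among genes at 30 CPM or more. Whether the counts by element differ from these shares was not tested.

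Within the siCHKA group, some members differed between the sets of samples. HERPUD1 lay at 129 to 133 CPM in replicates 1, 3 and 5 and at 185 to 195 CPM in replicates 2, 4 and 6, and its log2 fold change against siNT was -0.95 with the first set only and -0.42 with the second set only. HSPA13 differed the same way (55.1 to 60.6 against 70.5 to 80.0 CPM, log2 fold changes of -1.28 and -0.95). UGGT1 and VCP went the other way. UGGT1 lay at 144 to 154 CPM in replicates 1, 3 and 5 and at 106 to 117 CPM in replicates 2, 4 and 6 (log2 fold changes of -0.53 and -0.97), and VCP at 422 to 433 and 340.2 to 355 CPM (-0.29 and -0.59). The other members whose sets did not overlap are given with the log2 fold change from replicates 1, 3 and 5 before that from replicates 2, 4 and 6. Lower in the first set were HYOU1 (-1.20 and -1.15), CRELD2 (-1.0 and -0.82), UGGT2 (-0.42 and -0.23), SELENOS (-0.71 and -0.49), ERLEC1 (-0.31 and -0.09), UBE2G2 (-0.26 and -0.15) and UBXN4 (-0.11 and 0.08, neither past the test). Higher in the first set were EDEM3 (-0.05 and -0.32), NPLOC4 (-0.10 and -0.28), FAF2 (-0.53 and -0.64) and SIL1, given above. HSPA5 had a log2 fold change of -1.09 with either set, HSP90B1 of -0.97 and -0.96, and UBE2J1 of -0.81 and -0.80. Every replicate of the first set lay below the second in 9 of 35 members (25.7%) and above it in 6 (17.1%), against 22.9% and 24.6% of all tested genes.

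Neighbouring gene lists were set beside the 30.1% lower and 32.1% higher of all genes tested. Of 25 other ER folding and glycan trimming genes, 13 were lower (52%) and 2 higher (8%), with a median of -0.27. DNAJC1, an ER membrane J-protein, fell by 1.03, MESD, a chaperone of lipoprotein receptors, by 0.63 and DNAJB11, a cochaperone of HSPA5, by 0.56, while the isomerase PPIC rose by 0.35 and SUMF1, which activates sulfatases, by 0.31. Of 39 other degradation genes, 16 were lower (41%) and 11 higher (28.2%), with a median of -0.09. The share lower lay between the 30.1% of all genes and the 43.4% of genes at 30 CPM or more, a level that some of these 39 did not reach. The share higher was near the 32.1% of all genes. The 11 higher stand against 0 higher among the 20 degradation members (the difference was not tested). SVIP, an inhibitor of the VCP pathway, fell by 0.58, SGTA by 0.49 and ERLIN1 by 0.45, and the ligase STUB1 rose by 0.36, UBXN6 by 0.24 and HERPUD2, the paralog of HERPUD1, by 0.35. The counterparts in the cytosol were lower as well: 14 of 18 cytosolic chaperones and cochaperones were lower (77.8%) and 0 higher, with a median of -0.36, and falls of 0.96 in BAG3, 0.82 in PTGES3 and 0.62 in HSPB1. Lower levels were thus not particular to the chaperones of the ER.

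Of 15 sensors and transcription factors of the unfolded protein response, 9 were lower (60%) and 1 higher (6.67%), with a median of -0.24. NFYB, a subunit of the CCAAT-binding factor, fell by 0.88 (adjusted p = 4.99e-10), XBP1 by 0.76 (adjusted p = 2.34e-08) and the sensor kinase EIF2AK3 (PERK) by 0.64 (adjusted p = 2.81e-07). CREB3 rose by 0.18 (adjusted p = 0.0361). The other members of the list are given in full because they were looked at after their values were seen. ATF6B fell by 1.11 (adjusted p = 4.77e-05), ATF4 by 0.76 (adjusted p = 1.75e-06), CREB3L2 by 0.53, NFYC by 0.24 and CREB3L4 by 0.23. ATF6 fell by 0.37 (adjusted p = 4.06e-05). MBTPS1 (-0.03), NFYA (-0.10), MBTPS2 (0.16), the sensor ERN1 or IRE1 (-0.06) and DDIT3 (0.10, adjusted p = 0.539) did not pass the test. DDIT3 (CHOP), a factor known to rise under prolonged ER stress, lay at 32.0 to 35.5 CPM in siCHKA replicates 1, 3 and 5, below all siNT samples (38.3 to 45.5 CPM), and at 52.4 to 56.5 CPM in replicates 2, 4 and 6, above them all. ATF4 lay at 202 to 220.0 and 272 to 289 CPM in these sets and ATF6B at 10.2 to 11.5 and 20.2 to 22.4 CPM, in both cases below every siNT sample. Counts per gene do not tell the spliced form of XBP1 from the unspliced one or show cleavage of ATF6.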

How the data were processed

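Polyadenylated RNA of C4-2 cells was sequenced by the authors as single-end reads of 40 bases. Per the labels and the study's methods, reads were aligned to GRCh37 (Ensembl) with TopHat2 2.0.4 and counted on genes with HTSeq 0.5.3p9. The deposited counts were not normalized, came as 4 count files per sample (48 in all) and were summed here. The authors' own test used DESeq 1.10.1 and its results were not used.

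Gene names came from GENCODE release 44, matched on Ensembl identifiers (82.8% of 54127). edgeR 4.0.16 in R 4.3.3 was used (filterByExpr, TMM, quasi-likelihood test without covariates, Benjamini-Hochberg adjustment over all genes tested, prior count 2). Standard errors were derived as the absolute log2 fold change divided by the square root of the quasi-likelihood F statistic. Alternatives were RLE, DESeq2 1.42.0, library totals only (chosen after seeing the data), no filter, a minimum of 10 counts in each sample, the replicate block, either set of siCHKA samples, 1 count file, equal depth, a 2-fold minimum and each sample left out. All 35 members are named. Values by sample are given for the 7 members of each arm with the smallest p among those lower and for members called higher, and for other lists the 3 genes with the smallest p in each direction. Members, lists and motifs were chosen with earlier results of these data known. The motif search was tested on planted elements, and the fit on simulated counts in which 200 of 14367 genes changed 2-fold. The fit recovered 91.5% of these, with 7 false calls among 190. The data held far more called genes (4371 lower and 4650 higher) and 2 sets of siCHKA samples, so that simulation does not show how the fit behaves here. Promoter windows came from RefSeq (GRCh38.p14), gene coordinates are on GRCh38, and siNT RPKM used canonical transcript lengths. Protein sequences were not used here.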

Additional observations from a re-analysis of the deposited data

Results flagged for a closer look

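The members, CHKA and the summed levels were each checked for a sample set apart within its group of 6, 78 groups in all. In 5 groups the gap of 1 sample to its nearest neighbour, divided by the range of the group, was above Dixon's limit, and chance alone gives about 1 in 20, or 3.9. HYOU1 in siCHKA replicate 1 lay at 260.5 CPM against 277 to 286 CPM in the others (ratio 0.664). CRELD2 in siNT replicate 2 lay at 105 CPM against 89.4 to 93.0 CPM (0.742). EDEM2 in siCHKA replicate 4 lay at 38.3 CPM against 32.1 to 34.2 CPM (0.642). UBXN4 in siNT replicate 4 lay at 126.7 CPM against 142 to 150.4 CPM (0.677). The ratio of the folding to the degradation sum in siNT replicate 4 was 3.77 against 3.496 to 3.59 in the other siNT samples (0.653), and this sample lay farther from the siCHKA samples than the others did.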

How the results depend on the processing

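Of the 35 members, 22 kept their direction and their call under the 22 alternatives other than the 2-fold minimum, and all 22 of them were lower. With a 2-fold minimum, 654 genes were lower and 785 higher, and 5 members were lower, 5 of them folding and 0 degradation. No member was higher (0, folding included) with no filter, with the replicate block, with siCHKA replicates 2, 4 and 6 only, at equal depth or with a 2-fold minimum, and 3 members were higher with library totals only, 2 folding and 1 degradation. The median of all genes was 0.19 with library totals only and 0.09 with no filter, that of the members -0.28 with library totals only, and that of the folding members -0.59 with library totals only and -0.82 with siCHKA replicates 2, 4 and 6 only. The degradation median was -0.14 with library totals only, -0.32 with no filter, -0.26 with at least 10 counts in every sample, -0.32 with siCHKA replicates 2, 4 and 6 only and -0.25 with 1 count file. The cause was not tested, except that library totals shift all genes together.

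Members that did not pass the test changed sign in some alternatives. With library totals only the log2 fold change was 0.13 for FKBP2 (adjusted p = 0.0307), 0.14 for EDEM2 (adjusted p = 0.0403), 0.13 for DERL2, 0.14 for UBXN4 and 0.11 for AUP1. With at least 10 counts in every sample it was 0.01 for EDEM2, 0.00 for DERL2 and 0.02 for UBXN4. With siCHKA replicates 2, 4 and 6 only it was 0.02 for EDEM2, 0.04 for DERL2, 0.08 for UBXN4 and 0.02 for AUP1. With 1 count file it was 0.04 for DERL2 and 0.05 for UBXN4, and at equal depth 0.02 for DERL2. Without 1 sample, EDEM2 ranged from -0.05 to 0.00, DERL2 from -0.06 to 0.00 and UBXN4 from -0.05 to 0.02. Over the fits without 1 sample, 28 to 29 members were lower and 0 to 1 higher, 13 folding and 15 to 16 degradation members were lower, and the medians were -0.79 to -0.73 and -0.30 to -0.28. The count of all lower genes was then 4221 to 4402 and of higher genes 4435 to 4596. NPLOC4 was not called with siCHKA replicates 1, 3 and 5 only (adjusted p = 0.117), ERLEC1 not with 2, 4 and 6 only (0.189) or 1 count file (0.416), and UFD1 not with 1 count file (0.0504).

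Deviations from the group means did not go together in siCHKA and siNT samples of the same number (mean correlation -0.036, from -0.396 to 0.32, against 0.008 for other pairs), so the numbers were not taken as pairs. Under the replicate block, 4273 genes fell and 4494 rose, 28 members were lower and 0 higher, and SIL1 had an adjusted p of 0.0575. Depth did not limit the members, all of them far above the level that 3 counts allow.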
